A study of Homo sapiens with 5 samples.

Results

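Of the 56632 genes in the tables, 9 encode transcription factors of the mammary epithelial lineages and are described here. They were chosen by name and by no cut on their values, but with earlier results of these data known. These are TP63, GATA3, TFAP2A, TFAP2C, ELF3, EHF, GRHL2, SOX9 and FOXA1. All 9 were matched by Ensembl gene identifier and were among the 11764 analysed genes, those whose FPKM averaged at least 1 across the 5 libraries. All 9 had an FPKM of at least 1 in both inputs and are called expressed. FPKM counts fragments scaled for transcript length and for the total of the library.

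RIPseq was used in MCF10A, a non-tumorigenic human mammary epithelial line, to ask which transcripts come down with CBFB and with hnRNPK, each set against input RNA that saw no antibody. CBFB is the partner subunit of the RUNX transcription factors, and hnRNPK, through its KH domains, binds RNA rich in C. The libraries were 1 input and 1 FLAG antibody RIP from MCF10A cells expressing FLAG-CBFB, and 1 input and 2 hnRNPK antibody RIP repeats from MCF10A cells with no construct named. All 5 cultures were untreated, at fewer than 20 passages, and grown with horse serum, insulin, EGF, hydrocortisone and cholera toxin. The methods of the study describe stable FLAG-CBFB lines made by lentivirus in cells whose own CBFB was knocked out, but the labels do not say whether these cells were such a line or a single clone. No mock immunoprecipitation was analysed here. The labels do not say whether the repeats were separate cultures, so their spread may be technical.

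Breast epithelium has an outer basal layer and an inner luminal layer. p63, the product of TP63, maintains basal cells, while GATA3 and FOXA1 are factors of the luminal, hormone-responsive cells. SOX9 is known from luminal progenitors, TFAP2A and TFAP2C encode the related AP-2 alpha and AP-2 gamma, ELF3 and EHF encode epithelial ETS factors, and GRHL2 sustains epithelial junction genes. A RIP reads out how much of each mRNA accompanies the precipitated protein, not how much factor is made.

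The libraries held 69786576 to 106855647 expected counts. Composition differed between inputs and RIPs, since the 37 mitochondrial genes took 4.27% and 11.2% of input counts, against 62.2% with FLAG-CBFB, and 84.5% and 86.6% with hnRNPK. Most other genes therefore had a lower FPKM after RIP, with a mean log2 ratio to input of -1.34 for FLAG-CBFB and of -2.61 and -2.68 for the hnRNPK repeats. Enrichment is given below as the difference in log2(FPKM + 1) between a RIP and its own input, less the mean difference over the 11764 genes, so 0 is the average gene. Values above 2, that is 4-fold, were called enriched, and values below -2 depleted. FLAG-CBFB had 1 library per arm, so its values have a counting error (95%) but no test. The hnRNPK values are means ± SD of 2 repeats against 1 input. For genes near or under 1 FPKM in these RIPs, the added 1 makes this SD small. They were also tested on counts with edgeR's quasi-likelihood method, whose spread comes from the 2 repeats alone.

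The 9 transcripts fell into 3 patterns. TFAP2A and GATA3 were enriched with FLAG-CBFB and in each hnRNPK repeat. SOX9 and FOXA1 were enriched with hnRNPK and lay under the threshold with FLAG-CBFB, and TP63 rose with hnRNPK in the count test. TFAP2C, ELF3, EHF and GRHL2 were not enriched in either RIP. No member was called depleted, but the measure left little room for such a call. With 1 added to each FPKM, only TFAP2A, with a lowest possible value of -2.05, could have been called for hnRNPK. For CBFB, GATA3 and FOXA1 could not have been, with lowest possible values of -1.50 and -0.88.

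Because hnRNPK prefers C-rich RNA, the most C-rich stretch of 30 bases in a transcript of each gene is shown for the 2 transcripts enriched in both RIPs, 2 of the other 3 that rose with hnRNPK in the count test and 2 that did not pass it. Sequences are from GENCODE release 29 on GRCh38, not from the libraries, and runs of 3 or more C are in capitals. The transcript was the protein-coding one nearest in length to the RSEM mean in the parental input.
TFAP2A: cctCCCgCCCCgCCCCtCCCacgcctcacc
GATA3: CCCgcacctcttcaccttCCCgCCCaCCCC
SOX9: CCCagggCCCaccgaCCCCaCCCaccaCCC
TP63: CCCCaCCCaggcactCCCtCCCCCactctc
TFAP2C: cacctctacagCCCCgcgccaCCCCtctcc
EHF: CCCCggcaacaacctccttcaccagccgcc
The TFAP2A stretch (chr6:10398381-10398410, minus strand) lies in the 3′ UTR and has 22 C. Those of GATA3 (chr10:8058504-8058533, plus strand), SOX9 (chr17:72123549-72123578, plus strand) and TP63 (chr3:189889392-189889421, plus strand) are coding, each with 20 C. The coding stretches of TFAP2C (chr20:56631268-56631297, plus strand) and EHF (chr11:34642666-34642695, plus strand) have 19 and 17 C. The 4 stretches shown from transcripts that rose thus have 20 to 22 C and the 2 others fewer, and those of ELF3 and GRHL2, not shown, have 17 and 18. This is a description of a few windows and was not tested. No background over all transcripts was taken. A longer transcript offers more windows, and those shown ran from 1501 nt for EHF to 4668 nt for TP63.

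TFAP2A (ENSG00000137203) lies on the minus strand of chromosome 6, from 10393186 to 10419659. Its FPKM was 36.5 in the FLAG-CBFB cell input and 112 in its RIP, while the parental input gave 24.9 against 100.2 and 61.6 in the hnRNPK RIPs. It was higher in every RIP than in its own input, while most genes were lower. The CBFB enrichment was 2.92 ± 0.03 (counting error), with 10050 input counts and 28171 RIP counts. The hnRNPK enrichment was 4.26 ± 0.44 (SD, n = 2), the highest of the 9. By edgeR's quasi-likelihood test the log2 fold change was 5.45 (SE 0.44, Benjamini-Hochberg adjusted p = 3.8e-33). Exons of TFAP2A share 438 bases with those of the antisense gene TFAP2A-AS1, listed at 0.17 to 1.26 FPKM in the 5 libraries, and 941 bases with TFAP2A-AS2, not analysed here. Whether the counting used strand is not given in the sources used here, so reads of that stretch cannot be told apart. Of all analysed genes, 97.8% had a lower CBFB enrichment and 98.8% a lower hnRNPK enrichment.

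GATA3 (ENSG00000107485) lies on chromosome 10 from 8045378 to 8075203 on the plus strand. Its level was among the lowest of the 9 in the inputs, at 6.17 FPKM in FLAG-CBFB cells and 6.40 in parental cells. The RIPs gave 15.1 FPKM with FLAG-CBFB, and 10.7 and 7.31 with hnRNPK. GATA3 was thus also above its own input in all 3 RIPs, though by a narrow margin in hnRNPK repeat 2. The CBFB enrichment was 2.51 ± 0.09 (counting error) and the hnRNPK enrichment 3.06 ± 0.30 (SD, n = 2). The edgeR quasi-likelihood log2 fold change was 4.18 (SE 0.44, adjusted p = 1.0e-19).

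The count of members above the threshold was 2 of 9 for CBFB, where 4.37% of all analysed genes were, and both of these were among the 4 of 9 above it for hnRNPK, where 8.2% of genes were. The 2 members above it in both RIPs compare with 3.79% of genes. An FPKM higher in all 3 RIPs than in the own input was found for 2 members and for 3.76% of genes. With 9 genes chosen by name these shares are a description and were not tested.

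**Figure D1:**
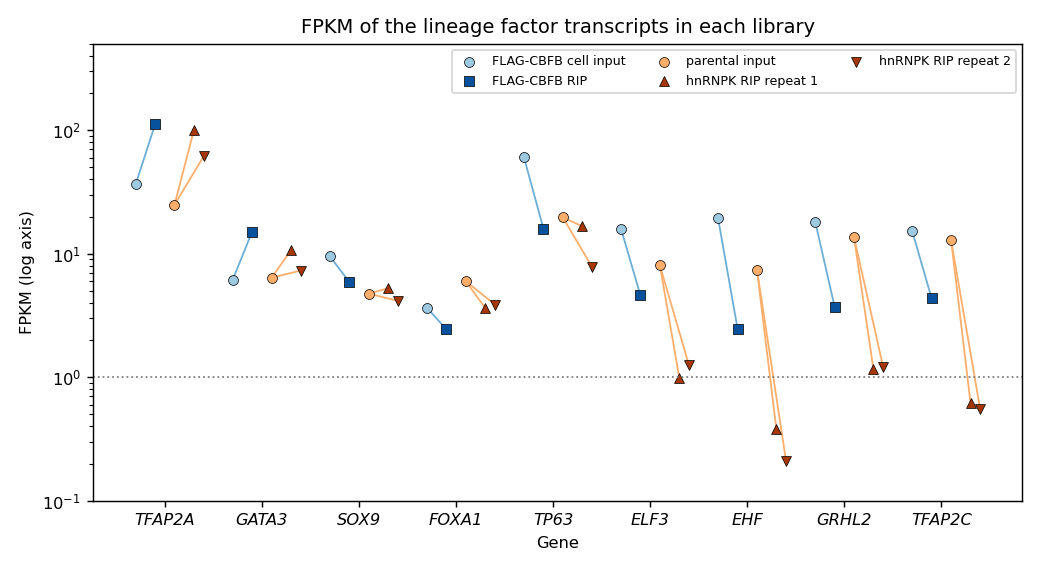
FPKM on a log axis for each of the 9 genes, ordered by hnRNPK enrichment. Circles are inputs, squares the FLAG-CBFB RIP and triangles the hnRNPK RIP repeats, lines join each RIP to its own input, and the dotted line marks an FPKM of 1; only TFAP2A and GATA3 lie above their own input in all 3 RIPs, while EHF is at 0.38 and 0.21 in the hnRNPK RIPs.

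SOX9 (ENSG00000125398, chromosome 17 from 72121020 to 72126420, plus strand) was at 9.56 FPKM in the FLAG-CBFB cell input and 5.92 in the RIP, and at 4.76 in the parental input against 5.26 and 4.16 in the hnRNPK RIPs. Its FPKM was lower than the input with FLAG-CBFB and close to the input with hnRNPK, repeat 1 lying above and repeat 2 below. Centred, this gave 0.73 ± 0.08 (counting error) for CBFB and 2.62 ± 0.15 (SD, n = 2) for hnRNPK. The edgeR quasi-likelihood log2 fold change was 3.76 (SE 0.43, adjusted p = 9.3e-17). Against the input of FLAG-CBFB cells the hnRNPK value was 1.72, under the threshold.

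FOXA1 (ENSG00000129514, chromosome 14 from 37589984 to 37596059, minus strand) encodes a pioneer factor that opens chromatin for the estrogen receptor. Its FPKM was 3.66 in the FLAG-CBFB cell input and 2.45 in the RIP, and 6.01 in the parental input against 3.65 and 3.88 in the hnRNPK RIPs. FOXA1 was below its own input in every RIP, but by less than the average gene. The enrichment was 0.91 ± 0.16 (counting error) for CBFB and 2.09 ± 0.10 (SD, n = 2) for hnRNPK, just past the threshold. The edgeR quasi-likelihood log2 fold change was 3.25 (SE 0.43, adjusted p = 4.6e-13). These 2 genes were the only members besides TFAP2A and GATA3 above 0 for CBFB. Neither reached 1, and 2 of the 9 members did, as did 9.27% of all analysed genes.

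TP63 (ENSG00000073282, chromosome 3 from 189631416 to 189897279, plus strand) had the widest gap between the hnRNPK repeats of the 9, on the centred FPKM scale, and differed between the cell lines. Its FPKM was 60.4 in the FLAG-CBFB cell input and 16.0 in the RIP, and 19.7 in the parental input against 16.7 and 7.88 in the hnRNPK RIPs. TP63 lay below the average gene with FLAG-CBFB, at -0.51 ± 0.04 (counting error), and above it with hnRNPK, at 2.39 and 1.46, a mean of 1.92 ± 0.66 (SD, n = 2). The repeats lay on either side of the threshold. They were 0.93 apart, where the gap between repeats had an SD of 0.35 over all analysed genes and 1.84% of genes were as far apart or farther. The edgeR quasi-likelihood log2 fold change was 3.15 (SE 0.40, adjusted p = 5.6e-14).

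TFAP2C (ENSG00000087510, chromosome 20 from 56629302 to 56639283, plus strand), the relative of TFAP2A, was at 15.2 FPKM in the FLAG-CBFB cell input and 4.35 in the RIP. It was at 12.9 in the parental input and at 0.62 and 0.55 in the hnRNPK RIPs. The transcript was thus lower in every RIP than in its input, the reverse of TFAP2A. Its enrichment was -0.26 ± 0.10 (counting error) for CBFB and -0.49 ± 0.0045 (SD, n = 2) for hnRNPK. That SD is narrowed by the added 1. The counting errors (95%) of the hnRNPK repeats, taken without it, were 0.22 and 0.27. TFAP2A exceeded TFAP2C by 3.18 in the FLAG-CBFB RIP and by 4.75 ± 0.45 (SD, n = 2) in the hnRNPK RIPs, a difference that does not depend on the centring. In the inputs TFAP2A was also the more abundant of these paralogs per kilobase, but by less, at 36.5 against 15.2 FPKM and at 24.9 against 12.9.

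ELF3 (ENSG00000163435, chromosome 1 from 202007945 to 202017188, plus strand) was at 15.9 FPKM in the FLAG-CBFB cell input and 4.60 in the RIP, and at 8.07 in the parental input against 0.99 and 1.25 in the hnRNPK RIPs. EHF (ENSG00000135373, chromosome 11 from 34621093 to 34661057, plus strand) was at 19.3 and 2.48 in the FLAG-CBFB pair, and at 7.46 against 0.38 and 0.21 with hnRNPK. Both ETS transcripts had a lower FPKM in every RIP than in its input. EHF had the lowest CBFB enrichment of the 9, at -1.21 ± 0.12 (counting error), and 1.37% of analysed genes were lower. Its hnRNPK enrichment was -0.07 ± 0.08 (SD, n = 2), while ELF3 was at -0.26 ± 0.14 (counting error) for CBFB and 0.54 ± 0.17 (SD, n = 2) for hnRNPK. The added 1 narrows the SD of EHF, whose hnRNPK repeats had counting errors (95%), taken without it, of 0.30 and 0.45. Exons of ELF3 share 664 bases with the antisense gene ELF3-AS1, listed at 0.25 to 1.47 FPKM, and 664 with AL691482.3 on the same strand, listed at 0 to 0.15 FPKM, so reads there cannot be told apart either. ELF3 exceeded EHF by 0.95 with FLAG-CBFB and by 0.61 ± 0.26 (SD, n = 2) with hnRNPK.

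GRHL2 (ENSG00000083307, chromosome 8 from 101492432 to 101669726, plus strand) was at 18.2 FPKM in the FLAG-CBFB cell input and 3.73 in the RIP, and at 13.6 in the parental input against 1.16 and 1.21 in the hnRNPK RIPs. It was lower in each RIP than in its input. The enrichment was -0.68 ± 0.07 (counting error) for CBFB and -0.10 ± 0.07 (SD, n = 2) for hnRNPK.

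TP63 and ELF3 were below 0 for CBFB and above 0 in both hnRNPK repeats, as were 18.9% of all analysed genes, and 2 members of 9 are too few to set against that share. The FLAG-CBFB RIP was 1 library from another line, so this contrast was not tested.

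In the count test of the hnRNPK RIP, 5 of the 9 rose and 0 fell, where 21.9% of the 16639 genes tested rose and 15.8% fell. The 4 that did not pass had wide intervals. The edgeR quasi-likelihood log2 fold change (with its approximate 95% interval) was -0.73 for TFAP2C (-1.48 to 0.02, adjusted p = 0.12), 0.86 for ELF3 (-0.03 to 1.74, adjusted p = 0.12), -0.51 for EHF (-1.41 to 0.40, adjusted p = 0.41) and 0.10 for GRHL2 (-0.61 to 0.81, adjusted p = 0.86). A p that misses the threshold does not show that these transcripts moved with the average gene. The intervals of all 4 lie under those of the 5 that rose, the lowest of which starts at 2.37.

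**Figure D2:**
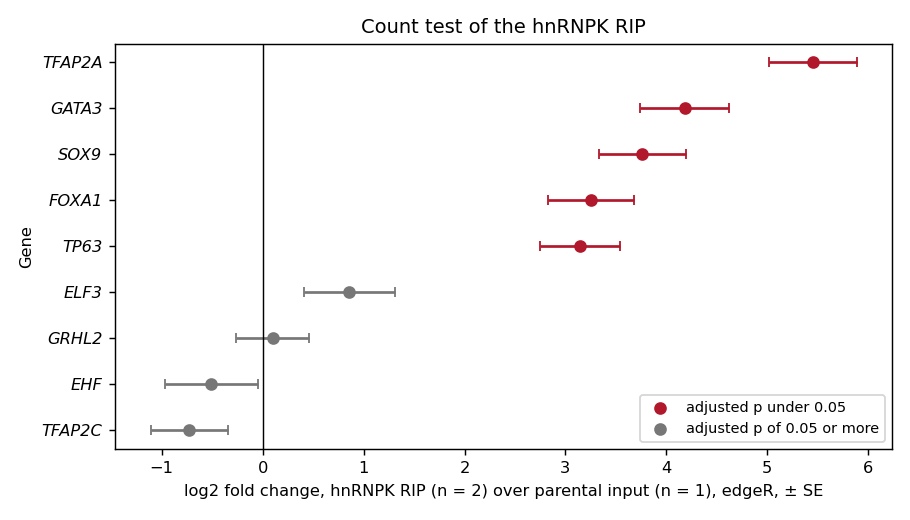
Log2 fold change of the hnRNPK RIP (2 libraries) over the parental input (1 library) for each gene, from edgeR, with the SE as bars and the line at 0. The 5 genes in red, from TP63 at 3.15 to TFAP2A at 5.45, had an adjusted p under 0.05, and the 4 in grey lay between -0.73 and 0.86.

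The scale of the measure bears on several of these values. Without centring, the mean hnRNPK log2 ratio was 1.62 for TFAP2A and 0.41 for GATA3, but -0.019 for SOX9, -0.56 for FOXA1 and -0.72 for TP63, so these 3 lay above the average gene but, on the mean of the repeats, not above their input on the FPKM scale. Without centring TFAP2A and GATA3 were at 1.58 and 1.17 for CBFB, above their input but under the 4-fold threshold. With a pseudocount of 1 moreover, an mRNA absent from the RIP cannot fall below a limit set by its input, which for hnRNPK was -1.15 for TFAP2C, -1.23 for GRHL2, -0.44 for EHF and -0.54 for ELF3, so none of these could have been called depleted. For SOX9 that limit was 0.12, above the average gene. Expressed as CPM, counts scaled to the total outside the mitochondrial genes with no pseudocount, SOX9 still went from 20.2 in the parental input to 128 and 117 in the hnRNPK RIPs, and FOXA1 from 14.4 to 53.1 and 69.6. TFAP2C went from 37.9 to 10.8 and 9.55 on this scale, which is not centred on the average gene, and GRHL2 from 73.9 to 37.0 and 33.7. The higher values of SOX9 and FOXA1 thus did not rest on the pseudocount.

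In the FLAG-CBFB pair TFAP2A went from 98.2 to 820 CPM on this scale, and GATA3 from 15.5 to 94.2. SOX9 went from 37.6 to 59.0 and FOXA1 from 8.66 to 15.0, while TP63 went from 248 to 182. EHF had the lowest ratio of the 9, from 52.1 to 17.2. On log2(FPKM + 1), TFAP2A stood 3.11 above GAPDH, a housekeeping transcript, in the FLAG-CBFB RIP. In the hnRNPK RIPs TFAP2A stood 7.23 and 6.67 above GAPDH. TFAP2C stood 0.07 below GAPDH and then 2.17 and 2.23 above it. The pseudocount widened this hnRNPK gap, since TFAP2C was at only 0.62 and 0.55 FPKM in these RIPs. By edgeR's quasi-likelihood method the 2 transcripts lay closer together, with hnRNPK log2 fold changes of -0.73 (TFAP2C) and -1.58 (GAPDH). GAPDH itself was at -0.18 for CBFB and -2.69 for hnRNPK.

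**Figure D3:**
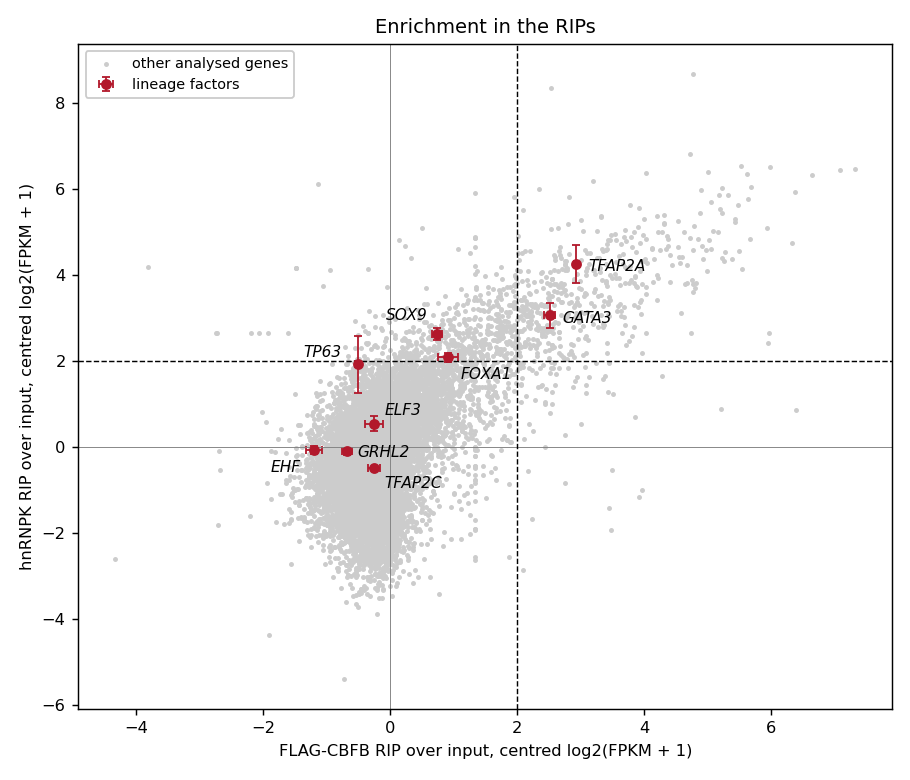
Centred log2(FPKM + 1) enrichment in the FLAG-CBFB RIP (x axis) and the hnRNPK RIP (y axis, mean of 2 repeats), with the 9 genes in red over the other analysed genes in grey. Horizontal bars are the 95% counting error, vertical bars the SD of the repeats, and dashed lines the 4-fold threshold of 2, which TFAP2A (2.92 and 4.26) and GATA3 (2.51 and 3.06) pass on both axes.

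Density of C-tracts was compared next, as a feature that the choice of genes did not use. A tract was a run of 4 or more C on the transcript strand, with runs counted once. The median over 10482 protein-coding transcripts was 3.51 per kb, and 96.6% held at least 1 tract, so the presence of one is no distinction. The median was 10.5 per kb over the 373 of these genes above 2 for CBFB and 8.20 over the 740 above 2 for hnRNPK, against 3.37 and 3.29 for the rest. Across genes Pearson's r between tract density and enrichment was 0.42 for CBFB and 0.34 for hnRNPK, and Spearman's rho 0.22 and 0.24. These describe genes within the same libraries and carry no p. Tract density did not stand alone. Spearman's rho for CBFB and hnRNPK was -0.28 and 0.36 for transcript length, and 0.23 and 0.18 for C percent. Median GC was 59.4% in genes above 2 for CBFB and 56.4% for hnRNPK, against 49.1% and 49.0% for the rest. These features were not separated.

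GATA3, SOX9 and TFAP2A had the densest tracts of the 9, at 10.9, 10.2 and 10.1 per kb, and 92.4% to 94.3% of transcripts had fewer. These are 3 of the 4 members above 2 for hnRNPK. FOXA1, the other one, had 7.69 per kb, but TFAP2C and ELF3, at 7.68 and 7.34, were close to it and not enriched. GRHL2 had 4.58 and TP63 4.07 per kb, near the median, although TP63 rose with hnRNPK in the count test. EHF had 1.33 per kb and the lowest CBFB enrichment. Its density was read from a transcript of 1501 nt, while its RSEM mean lengths were 1975 to 2791 nt. That of TFAP2A had 2071 nt, against means of 2312 to 2946 nt. Other picked transcripts, such as that of ELF3, were longer than their means. The densities depend on this pick. The order by density did not match that by enrichment in either RIP. TP63 had fewer tracts per kb than TFAP2C but lay above it for hnRNPK, and SOX9 had the density of TFAP2A without its CBFB enrichment. TFAP2C was the lowest of the 9 for hnRNPK with a pseudocount of 1. With pseudocount 0.1 EHF was lower, at -0.85 against -0.80.

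Most tracts of the enriched transcripts were in coding sequence: 14 of 21 in TFAP2A, 18 of 29 in GATA3, 28 of 40 in SOX9 and 14 of 22 in FOXA1. This did not set them apart. Coding sequence also held 13 of 22 in TFAP2C, 10 of 15 in ELF3, 2 of 2 in EHF and 14 of 19 in TP63. Only in GRHL2 were most, 16 of 24, in the 3′ UTR. No such share was taken over all transcripts.

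**Figure D4:**
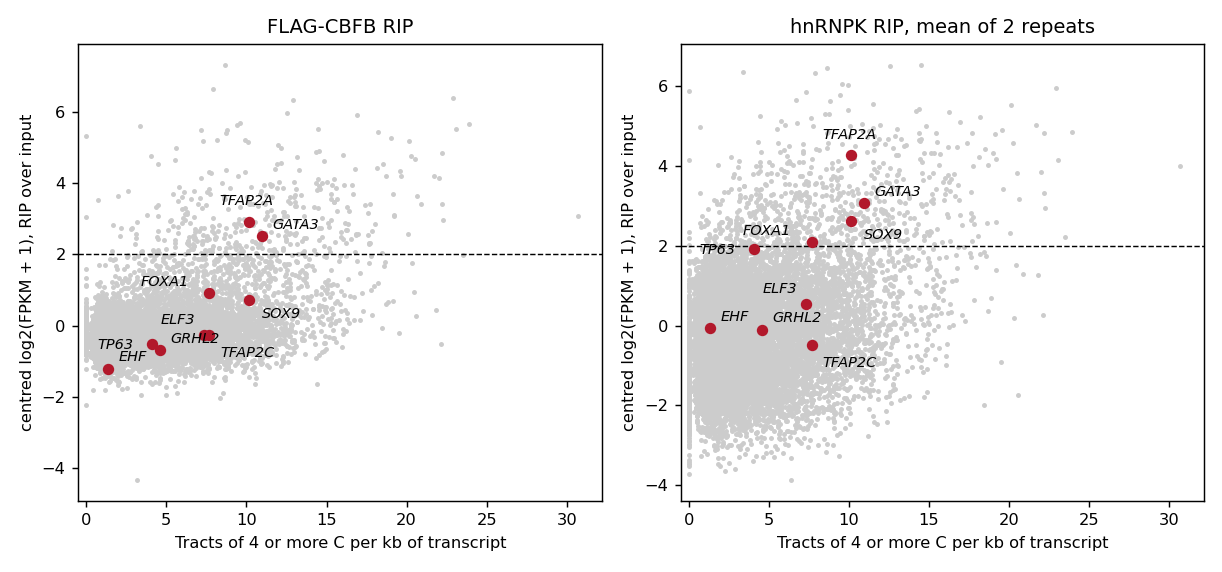
Tracts of 4 or more C per kb of transcript (x axis) against centred log2(FPKM + 1) enrichment in the FLAG-CBFB RIP (left) and the hnRNPK RIP (right, mean of 2 repeats), with the 9 genes in red over all protein-coding genes in grey and the threshold of 2 dashed. TFAP2A and SOX9 have near the same density, 10.1 and 10.2 per kb, and are 2.92 and 0.73 on the left panel.

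The inputs differed between the cell lines for several members. TP63 was at 60.4 FPKM in FLAG-CBFB cells and 19.7 in parental cells, a 3.07-fold difference and a centred log2 difference of 1.60 ± 0.04 (counting error). EHF followed, 2.59-fold higher in FLAG-CBFB cells, but RSEM gave it a mean transcript length of 2755 nt there and 1975 nt in the parental input, and FPKM divides by that length. On log2 CPM with TMM factors EHF differed by 1.88 and TP63 by 1.64, so which of them differed more depends on the scale. ELF3 was 1.97-fold and SOX9 2.01-fold higher, while FOXA1 was 1.64-fold lower, at 3.66 against 6.01 FPKM. In all, 7 of the 9 had a higher centred value in FLAG-CBFB cells. By that value 2 of 9 differed by more than 2-fold, where 9.57% of all analysed genes did, and 0 by more than 4-fold, where 1.33% did. Each line had 1 input, so cell line and library cannot be told apart, and in bulk RNA fewer cells of a type and less RNA per cell cannot be told apart either.

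TP63 ranked first of the 9 in FLAG-CBFB cells, followed by TFAP2A at 36.5 FPKM. In parental cells TFAP2A came first at 24.9, followed by TP63. SOX9 was last there at 4.76 and FOXA1 last in FLAG-CBFB cells at 3.66. With 1 library each, no spread is available for neighbours in this order. The enrichment of TP63 changes with the input used: set against the other line, CBFB gave 1.09 and hnRNPK 0.32.

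**Figure D5:**
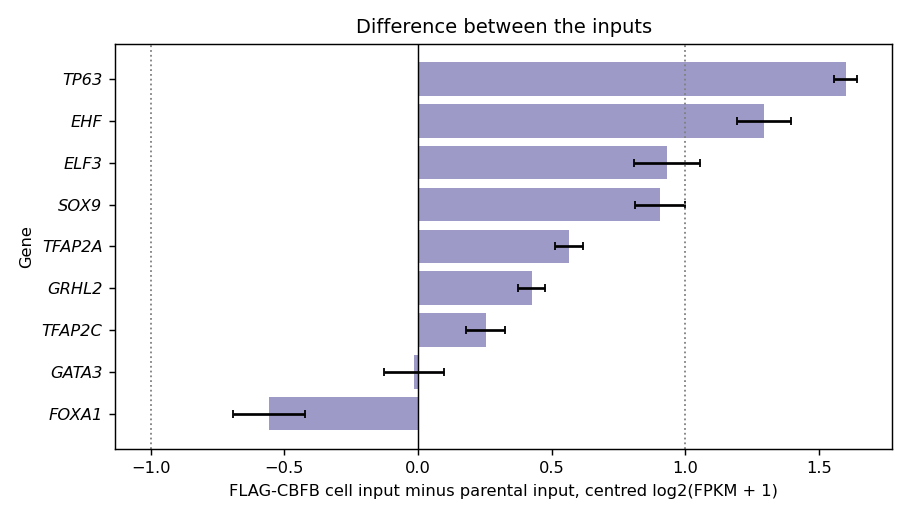
Centred log2(FPKM + 1) of the FLAG-CBFB cell input minus the parental input for each gene, with the 95% counting error as bars, which holds no biological spread, and dotted lines at 2-fold. TP63 (1.60) and EHF (1.30) lie past 2-fold, and FOXA1 (-0.56) and GATA3 (-0.01) are the genes below 0.

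Basal and luminal marker lists were read in the same inputs. The basal list summed to 3848 FPKM in FLAG-CBFB cells and 2863 in parental cells, and 9 of its 10 analysed members were higher in FLAG-CBFB cells. VIM was the exception, at 5.89 FPKM against 36.3. Of the other basal markers CNN1 was listed at 0 in both inputs. The luminal list summed to 513 FPKM against 1066, most of it KRT18 at 305 and 702 FPKM and KRT8 at 76.6 and 196, and 2 of its 6 analysed members were higher in FLAG-CBFB cells. KIT was listed at 0 in both. Whether the differences of TP63 and FOXA1 follow from these was not tested. KRT5, at 1974 and 1640 FPKM, and KRT17, at 974 and 540, were the most abundant of the basal list. Of the 9 matched markers of fibroblasts, endothelium, blood and fat, 7 were under 1 FPKM in both inputs, and COL3A1, CDH5 and ADIPOQ had 0 counts in all 5 libraries. COL1A1, a fibroblast marker, was at 1.08 FPKM in FLAG-CBFB cells and 1.77 in parental cells, but averaged under 1 across the 5 libraries. CD68, a macrophage marker and the only one of them analysed, was at 3.92 and 0.80 FPKM, and at 0.21 for CBFB and 2.53 ± 0.12 (SD, n = 2) for hnRNPK. It was at only 0.61 and 0.72 FPKM in the hnRNPK RIPs. With 1 added to its low input, CD68 would lie above the average gene even with no RIP reads. Its mean FPKM reached 1 only through the FLAG-CBFB cell input. The edgeR quasi-likelihood log2 fold change was 3.32 (SE 0.59, adjusted p = 1.9e-07), on few counts.

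Of 28 other transcription factors of these lineages, 16 were analysed, and 9 of the 28 were under 1 FPKM in both inputs. ESR1, the estrogen receptor, was at 0.71 and 0.67 FPKM, and ELF5 and PGR were listed at 0 in both. Of the 16, 1 was above 2 for CBFB and 3 for hnRNPK, where 4.37% and 8.2% of all analysed genes were. Among the 3 was ZNF750, whose hnRNPK call was fixed by its low input, as given below. For hnRNPK 1 was below -2. The median was -0.17 for CBFB and 1.01 for hnRNPK, against -0.19 and -0.11 over all analysed genes and -0.26 and 1.92 over the 9. The added 1 holds up the hnRNPK values of factors with a low input, and so this median. GRHL1 went from 1.60 FPKM in the parental input to 0.14 and 0.06 with hnRNPK, yet stood at 1.40. MYB went from 2.13 to 0.04 and 0.15, yet stood at 1.13. In the edgeR quasi-likelihood test 8 of the 22 tested rose and 1 fell, beside 21.9% and 15.8% of all genes tested. Their median log2 fold change there was 0.85, against -0.12 over all genes tested.

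RUNX1, the partner of CBFB, was the factor above 2 in both RIPs, at 2.13 and 3.09 ± 0.28 (SD, n = 2), which put it near GATA3. NFIB was at 1.28 for CBFB and 2.55 ± 0.21 (SD, n = 2) for hnRNPK. ZNF750, a differentiation factor downstream of p63, was at -0.36 and 2.65. However, its parental input had 30 counts and 0.16 FPKM, with 0.23 and 0.11 FPKM in the hnRNPK RIPs. With 1 added to that input and the mean of -2.64 subtracted, ZNF750 would exceed 2 for hnRNPK even with no RIP reads. Its mean FPKM reached 1 only through the FLAG-CBFB cell input, at 5.19 FPKM. Its edgeR quasi-likelihood log2 fold change was 4.16 (SE 0.73, adjusted p = 1.2e-07), on few counts. CEBPB fell with hnRNPK in the count test, from 82.2 FPKM to 2.76 and 1.58 (edgeR quasi-likelihood log2 fold change -1.48, SE 0.35, adjusted p = 0.00012). XBP1, one of the most abundant of the list, was at -0.92 for hnRNPK and at -0.05 for CBFB.

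Genes that p63 and GRHL2 are known to activate were read out as 2 more lists. Of 14 p63 target genes, 0 were above 2 for CBFB and 1 was for hnRNPK. That was ZNF750, whose hnRNPK call was fixed by its low input. COL17A1, a hemidesmosome collagen, was below -2 for hnRNPK at -2.33 ± 0.23 (SD, n = 2). KRT5 was at 0.68 for CBFB and 0.78 ± 0.19 for hnRNPK (SD, n = 2), and ITGB4 at -0.97 and -1.21 ± 0.18. Of 10 GRHL2 target genes 0 passed in either RIP, and RAB25 came nearest at 1.66 for CBFB. Its neighbour in abundance, CLDN7, was at -0.36. Among luminal markers MUC1, a cell surface mucin, was at 4.37 for CBFB and 4.83 ± 0.24 (SD, n = 2) for hnRNPK, above TFAP2A in both RIPs, while KRT18 was at 0.01 and -2.39 ± 0.03 and KRT8 at 0.61 and -1.70 ± 0.34. In the edgeR quasi-likelihood test 3 of 14 p63 target genes rose and 3 fell, and 4 of 10 GRHL2 target genes rose and 1 fell, where 21.9% of all genes tested rose and 15.8% fell.

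The 3 named genes whose log2(FPKM + 1) pattern over the 5 libraries was most like that of TFAP2A were SOX7, POM121B and SYVN1, with Euclidean distances of 0.31, 0.34 and 0.40 after each gene was centred on its own mean. SOX7 was at 31.4 FPKM and 86.6 in the FLAG-CBFB pair, and at 25.4 against 98.3 and 53.0 with hnRNPK. POM121B has close copies that share reads and is uncertain. Among the 9, the nearest pattern to TFAP2A was that of GATA3, at a distance of 1.04.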

How the data were processed

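RIPseq of 5 MCF10A libraries was analysed per gene. The authors quantified each library with RSEM; the submitters' processing notes also name Trimmomatic, STAR and the build hg19, with no versions. The expected counts, as deposited, are RSEM estimates and can hold fractions of reads. The FPKM values, as deposited, scale these estimates by effective length and by the fragments of the library. A mean transcript length per gene stands beside them, per the file headers. The hnRNPK repeats differed by far more than sampling noise and were kept as 2 samples.

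From these values log2(FPKM + 1) of each RIP minus its own input was computed and centred over the 11764 genes whose FPKM averaged at least 1. Counting errors are 95% intervals from the expected counts and cover counting error only, since no molecular identifiers were used. Expected counts of the 2 hnRNPK RIP libraries and the parental input were rounded to whole numbers, normalised by TMM, filtered with filterByExpr and tested with edgeR 4.0.16 (R 4.3.3), glmQLFit and glmQLFTest, with Benjamini-Hochberg adjustment over 16639 genes and a threshold of 0.05. The SE is the log2 fold change over the square root of its F statistic. The 1 input is thereby assumed to vary like the RIP repeats. The test was checked on simulated data. The simulated input and RIPs did not differ in mitochondrial share, so the check does not cover that difference. DESeq2 1.42.0 was an alternative, as were another pseudocount, other centrings and scalings, other filters, a 2-fold threshold and the opposite input.

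Gene positions, transcripts and sequences are those of GENCODE 29 on GRCh38, matched by gene identifier, since the tables hold no coordinates, and nothing was converted from hg19. The members and lists were chosen with earlier results of these data known. Named genes were the 9 members and, of each list, up to 4 analysed genes called in either RIP and the 2 with the highest input FPKM, with RUNX1 and GAPDH. The 3 genes most like the member with the highest parental FPKM completed them. VIM, CNN1, KIT, COL1A1, COL3A1, CDH5, ADIPOQ, ESR1, ELF5, PGR, GRHL1 and MYB were named after their values were seen. CD24 and PECAM1 were not matched by symbol. A gene that this rule names and some sequence stretches are not reported here.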

Additional observations from a re-analysis of the deposited data

Results flagged for a closer look

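TP63 and ELF3 lay on opposite sides of the average gene with FLAG-CBFB and in each hnRNPK repeat, every RIP set against its own input. With 1 FLAG-CBFB RIP library, this difference was not tested.

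The centred log2 value of TP63 was -0.51 with FLAG-CBFB, and 2.39 and 1.46 with hnRNPK. CBFB minus the hnRNPK mean was -2.43. TP63 also differed between the inputs, by 1.60. With the inputs exchanged the CBFB value was 1.09 and that of hnRNPK 0.32, so that the signs were no longer opposite. With TMM-scaled log2 CPM the CBFB value was -0.093 and the hnRNPK value 2.79.

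For ELF3 the value was -0.26 with FLAG-CBFB, and 0.42 and 0.67 with hnRNPK. CBFB minus the hnRNPK mean was -0.80. With the inputs exchanged the values were 0.67 and -0.39. In the edgeR quasi-likelihood test ELF3 did not pass for hnRNPK (log2 fold change 0.86, adjusted p = 0.12). Without centring both genes were below 0 in every RIP, at -1.85 for TP63 and -1.60 for ELF3 with FLAG-CBFB.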

How the results depend on the processing

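No paired analysis was possible because both hnRNPK RIPs shared 1 parental input and FLAG-CBFB had 1 input and 1 RIP. Leaving out a repeat in the count test was not run, since it leaves no residual degrees of freedom. All counts are of the 9 members. Those past the threshold, 2 for CBFB and 4 for hnRNPK, fell to 0 and 0 without centring, to 0 and 0 with libraries brought to equal arithmetic means of FPKM, and to 0 and 1 with the centring taken over all genes. By construction these settings subtract less of the mean log2 ratio, or none of it, from every gene. At 2-fold, 2 members rather than 0 differed between the inputs. Either hnRNPK repeat alone gave 4 or 5. The opposite input gave 3 for hnRNPK, with SOX9 at 1.72. TP63 passed at 2.67 with pseudocount 0.1, 2.03 with median centring, 2.77 without mitochondrial genes, 2.79 with TMM and 3.04 with DESeq2 size factors, giving 5. With a mean FPKM of at least 5 it passed at 2.38, while FOXA1 was filtered out. Without centring the hnRNPK values of SOX9 and FOXA1 were -0.019 and -0.56, and with the equal mean GATA3, SOX9 and FOXA1 were at -0.34, -0.72 and -1.26. The count test gave 5 higher and 0 lower in each of its 4 settings, GRHL2 turning to -0.12 without the count filter, where edgeR's adjusted p was 0.84 and the range over its 3 alternatives 0.76 to 0.94. In the 6 settings that do more than shift all genes alike, TFAP2A and GATA3 were the highest 2 for CBFB, and TP63, GATA3, TFAP2A, SOX9 and FOXA1 the highest 5 for hnRNPK, in 6 of 6. Every value against an input rests on 1 input library per line. With 42 to 173 counts, EHF, TFAP2C and ELF3 in the hnRNPK RIPs have the least depth.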
